A study of Mus musculus with 48 samples.

Results

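Transcripts of the mouse Fc gamma receptors were followed through 8 macrophage populations, each with and without the compound AP-3-84. The 5 genes were taken by symbol from a table of 51789 gene IDs. They are the activating receptors Fcgr1, Fcgr3 and Fcgr4, the inhibitory receptor Fcgr2b, and Fcer1g, the common gamma chain. All 5 passed the filter on low counts, and the lowest count of any of them in any library was 11.

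RNA was measured by 3′ tag sequencing (QuantSeq FWD) in 48 libraries, which fall into 16 groups of 3. All mice were of the C57BL/6 strain. Ascites macrophages came from mice labelled B6(Cg)-Tyrc-2J/J and were collected from the peritoneum on day 45 after ID8 mouse ovarian cancer cells were injected. Thioglycollate macrophages (thio) came from wild-type mice 4 days after 1 ml of 3% of this irritant, and in both cases F4/80+ cells were sorted on magnetic beads. Bone marrow-derived macrophages came from wild-type (WT) or p53 knockout (KO) marrow, with 6 days of culture in M-CSF at 10 ng/mL. The M0 cells received no further cytokine, M1 cells had 24 h of LPS (100 ng/mL) plus IFN-γ (50 ng/mL), and M2 cells 24 h of IL-4 plus IL-13 (both 10 ng/mL). Every population then received 10 µM AP-3-84, which the labels name without describing, or an equal amount of the solvent DMSO (vehicle) for 4 h. The genotype field of the labels calls all bone marrow-derived libraries wild-type. Titles, descriptions and the series' design separate WT from KO, and the groups follow these. The labels do not say whether the 3 libraries of a group came from separate animals or cultures, so p-values measure only the spread between these libraries, which may be technical.

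Fc gamma receptors bind the constant part of IgG and let macrophages take up antibody-coated particles. The activating receptors have no signalling motif of their own in mouse and pair with the gamma chain encoded by Fcer1g, whose tyrosine-based activation motif (ITAM) recruits the kinase Syk. FcγRIIB, the product of Fcgr2b, carries an inhibitory motif (ITIM) that recruits the phosphatase SHIP1 and raises the threshold for the others. IFN-γ and IL-4 are both known to shift the ratio of activating to inhibitory receptors on myeloid cells.

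In GENCODE M21 (GRCm38), 4 of the 5 genes lie within 275.7 kb of chromosome 1. Fcgr2b spans 170958617 to 170976547 on the minus strand, Fcgr4 171018920 to 171029761 on the plus strand, Fcgr3 171051174 to 171064935 on the minus strand and Fcer1g 171229572 to 171234365 on the minus strand. Fcgr1 lies apart, on chromosome 3 from 96282909 to 96293969, minus strand. Counts came from the 3′ ends of these genes. Transcripts of Fcgr3 and Fcgr2b share 94 stretches of 75 bases, the read length, which is 5.42% of those in Fcgr3 and 1.63% of those in Fcgr2b. None of these shared stretches of 75 bases lies in the last 500 bases of either gene's transcripts, and the other pairs of members share 0. Of stretches of 30 bases in the last 500, Fcgr2b shares 79 of 2487 (3.18%) with Fcgr3 transcripts. Fcgr3 shares 6 of 963 (0.62%) with those of Fcgr2b. Gm38204, annotated as antisense to the 5′ end of Fcgr2b, had 1 count in all 48 libraries, against 74 to 4682 counts of Fcgr2b per library.

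The sequence upstream of the start site is shown for the 2 receptors whose bone marrow-derived vehicle levels were highest after LPS and IFN-γ and for the shared gamma chain. The RefSeq promoter windows (GRCm38.p6, 250 bases before to 50 after the start site, found for all 5 genes) were searched on both strands for the core of the interferon-stimulated response element (ISRE), the STAT6 element and GAGGAA (the core of the PU.1 site). Capitals mark matches, and only bases before the annotated gene are printed, 5′ to 3′ on the gene's strand.
Fcgr1 (chr3:96293970-96294219, minus strand): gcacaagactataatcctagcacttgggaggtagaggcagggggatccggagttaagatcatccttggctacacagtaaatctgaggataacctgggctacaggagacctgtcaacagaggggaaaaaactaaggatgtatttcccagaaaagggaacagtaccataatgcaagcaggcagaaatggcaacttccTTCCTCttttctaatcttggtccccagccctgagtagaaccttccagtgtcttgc
Fcgr4 (chr1:171018676-171018919, plus strand): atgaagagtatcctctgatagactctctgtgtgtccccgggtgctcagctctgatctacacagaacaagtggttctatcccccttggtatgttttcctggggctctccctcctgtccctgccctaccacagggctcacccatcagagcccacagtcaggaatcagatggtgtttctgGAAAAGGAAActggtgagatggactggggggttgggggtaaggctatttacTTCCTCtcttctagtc
Fcer1g (chr1:171234366-171234599, minus strand): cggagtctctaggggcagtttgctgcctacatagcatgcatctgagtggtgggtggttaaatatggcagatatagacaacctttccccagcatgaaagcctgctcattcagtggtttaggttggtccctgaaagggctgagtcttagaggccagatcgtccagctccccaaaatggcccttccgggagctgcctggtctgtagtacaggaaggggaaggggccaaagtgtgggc

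The Fcgr1 window holds TTCCTC, which is GAGGAA on the other strand, at position -55 from the start site. The Fcgr4 window holds GAAAAGGAAA, an ISRE core, at -73 and TTCCTC at -22. The windows of Fcgr3, at 2 neighbouring start sites, hold only TTCCTC, and those of Fcer1g and Fcgr2b hold none of the 3 motifs. The windows of Fcgr3 and Fcgr2b lie inside the genes as annotated in GENCODE. For these genes no sequence before the annotated gene was searched. Among 32851 promoter windows of the same length, 3.4% held the ISRE core, 7.0% the STAT6 element and 28.3% GAGGAA. A match describes these letters only.

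The 12 peritoneal libraries held 15532373 to 19417581 counts each, and the 36 others 3081707 to 4645148. The 2 sets were fitted apart and are not compared with each other. Adgre1, which encodes F4/80, was present in every library, at 193 to 254 CPM, counts scaled to library size with TMM factors, in peritoneal and 338 to 2746 CPM in bone marrow-derived libraries. Cdkn1a, a p53 target, was at 555 to 1119 CPM in WT and 34.1 to 292 CPM in KO libraries. Trp53 itself was low in both, at 4.79 to 13.2 and 2.70 to 9.11 CPM, with overlapping ranges. Arg1, an IL-4 response gene, reached 689 to 2815 CPM in M2 libraries and at most 6.06 CPM in M0.

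Some libraries stood apart in marker genes. The summed CPM of 10 neutrophil genes was 4039 in WT_M2 vehicle replicate 1 against 593 and 466 in replicates 2 and 3, and 3360 in KO_M2 vehicle replicate 3 against 352 and 642 in replicates 1 and 2. S100a8 reached 2310 CPM in WT_M2 and 1596 CPM in KO_M2 libraries, while Ly6g, which defines neutrophils, stayed at or below 1.11 CPM in all M2 libraries. WT_M2 vehicle replicate 1 was also high in Adgre1 (1421 against 624 and 580 CPM) and Arg1 (2240 against 1003 and 1140 CPM). A KO_M1 library after AP-3-84 had a neutrophil sum of 3732 CPM, against 793 and 737 CPM in the rest of its group. Across that group Fcgr1 was at 289 to 314 CPM and Fcgr4 at 228 to 269 CPM. In KO_M0 after AP-3-84, Adgre1 was at 2408, 1467 and 657 CPM in replicates 1 to 3, against 466 to 504 CPM in the 3 vehicle libraries. Summed B cell genes stayed at or below 33.5 CPM in all libraries, T and NK cell genes at or below 7.08 CPM, and mast cell, eosinophil and basophil genes at or below 8.55 CPM. In bulk RNA, fewer cells of a type and less RNA per cell cannot be told apart.

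**Figure D1:**
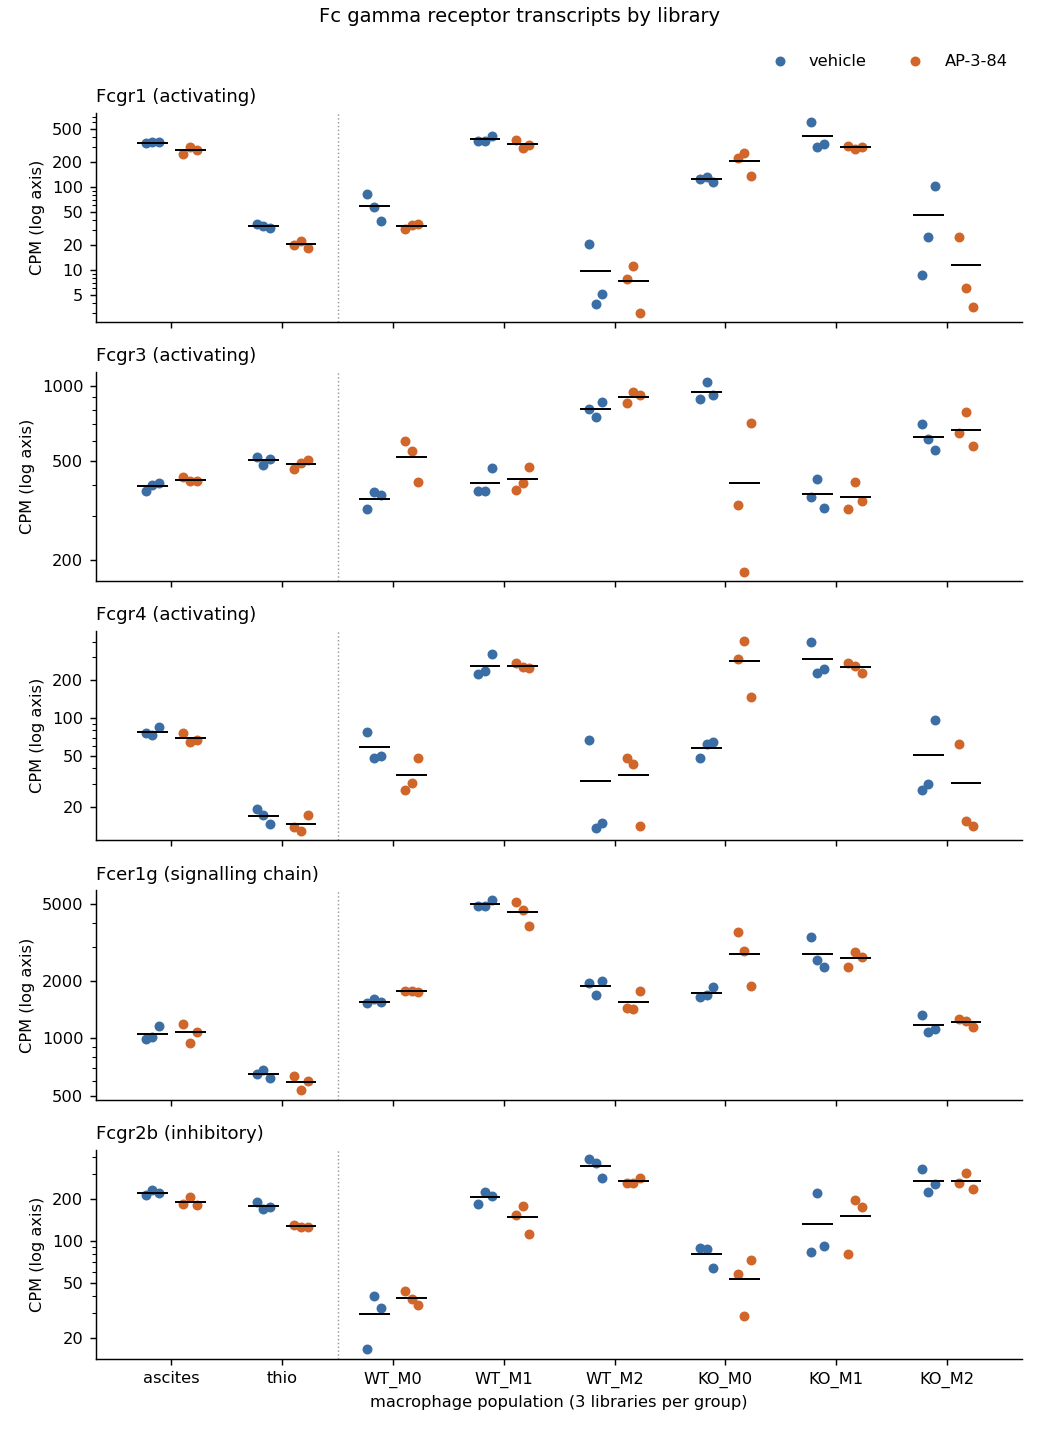
Level of each of the 5 genes (CPM, log axis) in each library, by population, with vehicle in blue and AP-3-84 in orange; points are single libraries and short lines are group means (n = 3). Among bone marrow-derived vehicle libraries, Fcgr1 and Fcgr4 are highest in M1 and Fcgr3 in KO_M0 and WT_M2, and the AP-3-84 libraries of KO_M0 are spread widely.

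The vehicle groups of bone marrow-derived macrophages show how each receptor depended on polarization. A gene is called where edgeR's quasi-likelihood test gives an adjusted p (Benjamini-Hochberg, all genes) under 0.05. In WT cells, 4 of 5 members were called between M1 and M0, all higher in M1, where 15.5% of 11779 genes were called in either direction and 8.01% were called higher. Between M2 and M0, 3 of 5 were called, against 23.4% of all genes. Both comparisons use the same 3 M0 libraries.

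Fcgr1 encodes FcγRI, the high-affinity receptor for monomeric IgG. It was at 82.6, 56.6 and 38.8 CPM in the 3 WT_M0 libraries, 355, 355 and 410 CPM in WT_M1, and 20.3, 3.92 and 5.07 CPM in WT_M2. The 3 groups do not overlap, with M1 highest and M2 lowest. The log2 fold change was 2.65 ± 0.61 (SE, n = 3) for M1 over M0 (adjusted p = 0.00397) and -2.58 ± 0.68 for M2 over M0 (adjusted p = 0.00701). The difference between M1 and M2 was 5.23 ± 0.72 (adjusted p = 4.14e-06), the largest for any member in these 3 comparisons. WT_M2 vehicle replicate 1, the library high in neutrophil genes, was also the highest of its group in Fcgr1. Without it the M2 value against M0 was -3.72 and the value of M1 over M2 was 6.37.

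Fcgr4 encodes FcγRIV, an activating receptor of intermediate affinity that is typical of mouse monocytes, macrophages and neutrophils. Its libraries were at 77.8, 48.5 and 50.4 CPM in WT_M0 and 223, 233 and 320 CPM in WT_M1. The groups are apart and the M1 value was 2.13 ± 0.58 above M0 (adjusted p = 0.0126). That call was lost when WT_M0 vehicle replicate 2 or replicate 3 was left out, with values of 2.01 and 2.03. In WT_M2 the libraries were at 66.5, 13.6 and 14.9 CPM, and the comparison with M0 was not called (-0.89 ± 0.59, adjusted p = 0.296). The single high value belongs to replicate 1, and without it the difference was -2.05 with an adjusted p of 0.0244 (0.000189 to 0.618 over 14 alternatives). Neutrophils also express Fcgr4, and the part of neutrophil RNA in this value was not tested.

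Fcgr3 encodes FcγRIII, a low-affinity activating receptor for immune complexes. It was at 320, 373 and 364 CPM in WT_M0, 377, 379 and 468 CPM in WT_M1, and 804, 750 and 859 CPM in WT_M2. It was higher in M2 than in M0 (1.19 ± 0.25, adjusted p = 0.000908) and lower in M1 than in M2 (-0.98 ± 0.25, adjusted p = 0.00404). The M1 value against M0 was 0.21 ± 0.25 and was not called (adjusted p = 0.633). Fcgr3 was thus the activating receptor with its highest WT level in M2, while Fcgr1 and Fcgr4 had their highest in M1.

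Fcer1g encodes the chain that the activating receptors need for surface expression and signalling. Its libraries were at 1528, 1597 and 1546 CPM in WT_M0, 4898, 4875 and 5271 CPM in WT_M1, and 1935, 1679 and 1995 CPM in WT_M2. M1 exceeded M0 by 1.69 ± 0.16 (adjusted p = 1.63e-08) and M2 by 1.42 ± 0.16 (adjusted p = 3.23e-08). M2 and M0 do not overlap, but their difference of 0.26 ± 0.16 was not called (adjusted p = 0.233).

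Fcgr2b, the inhibitory receptor, had its lowest level in unpolarized WT cells. The libraries were at 16.6, 40.1 and 32.7 CPM in WT_M0, 183, 224 and 209 CPM in WT_M1, and 385, 362 and 283 CPM in WT_M2. It was higher than in M0 under both stimuli, by 2.79 ± 0.37 in M1 (adjusted p = 6.46e-06) and by 3.53 ± 0.37 in M2 (adjusted p = 7.69e-08). M2 lay above M1 without overlap. The value of M1 over M2, -0.74 ± 0.33, was not called (adjusted p = 0.107), and it was called in 3 of 14 alternatives.

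In KO cells, 4 of 5 members were called between M1 and M0, against 44.5% of all genes, and 2 of 5 between M2 and M0, against 38% of all genes. All 5 were called between M1 and M2, against 25.4% of all genes in KO and 25.5% in WT, where 4 were called. These backgrounds are high, so a count of members called carries little on its own.

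Fcgr1 was at 126, 132 and 114 CPM in KO_M0, 599, 304 and 326 CPM in KO_M1, and 8.76, 25.0 and 103 CPM in KO_M2. M1 exceeded M0 by 1.72 ± 0.58 (adjusted p = 0.019) and M2 by 3.17 ± 0.62 (adjusted p = 0.000423). The first call was lost without KO_M0 vehicle replicate 3 (1.66) or without KO_M1 vehicle replicate 1 (1.34), the library with the highest Fcgr1 of the 36. M2 against M0 missed the threshold at -1.45 ± 0.60 (adjusted p = 0.0572). The 103 CPM came from KO_M2 vehicle replicate 3, which is high in neutrophil genes. Without it the difference was -2.86 with an adjusted p of 0.000934 (9.51e-12 to 0.278 over 14 alternatives), and M1 exceeded M2 by 4.58.

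Fcgr4 was at 48, 62.2 and 64.4 CPM in KO_M0 and 399, 225 and 243 CPM in KO_M1, a difference of 2.31 ± 0.58 (adjusted p = 0.00234). In KO_M2 it was at 27.1, 30.2 and 96.0 CPM, overlapping M0 (-0.19 ± 0.57, adjusted p = 0.827), and the highest value again came from replicate 3. Without that library the difference was -1.02 and was not called. Fcer1g was at 1645, 1674 and 1847 CPM in KO_M0, 3370, 2553 and 2363 CPM in KO_M1 and 1321, 1084 and 1118 CPM in KO_M2. The gamma chain was higher in M1 than in M0 (0.68 ± 0.16, adjusted p = 0.000745) and lower in M2 than in M0 (-0.55 ± 0.16, adjusted p = 0.00614).

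Among the bone marrow-derived vehicle groups, Fcgr3 had its highest mean in KO_M0, at 882, 1037 and 917 CPM. In KO_M1 it was at 358, 420 and 323 CPM, lower than in M0 by a log2 value of -1.36 ± 0.25 (adjusted p = 8.07e-05). In KO_M2 it was at 702, 612 and 554 CPM. The value of M2 over M0, -0.60 ± 0.25, missed the threshold (adjusted p = 0.0576) and was called in 5 of 14 alternatives.

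Fcgr2b was at 89.1, 87.4 and 64.1 CPM in KO_M0, 83.2, 219 and 91.1 CPM in KO_M1, and 327, 223 and 255 CPM in KO_M2. It was higher in M2 than in M0 (1.74 ± 0.35, adjusted p = 0.000265). M1 overlapped M0 and was not called (0.71 ± 0.34, adjusted p = 0.0919). The M1 mean rested on replicate 2, without which the difference was 0.12. Fcgr2b was lower in M1 than in M2 (-1.03 ± 0.34, adjusted p = 0.0239), a call lost without KO_M1 vehicle replicate 1 (-0.79), KO_M1 vehicle replicate 3 (-0.83) or KO_M2 vehicle replicate 1 (-0.86). In a fit of KO_M1 and KO_M2 alone, Fcgr1 (3.17) and Fcgr2b (-1.03) lost their calls.

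Marker sums moved with polarization in KO cells. Neutrophil genes summed to 601 to 755 CPM in KO_M0, 996 to 2557 CPM in KO_M1 and 352 to 3360 CPM in KO_M2. Macrophage genes summed to 32395 to 39029 CPM in KO_M0, 15718 to 25421 CPM in KO_M1 and 5867 to 18467 CPM in KO_M2. The part of either in the receptor values was not tested.

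**Figure D2:**
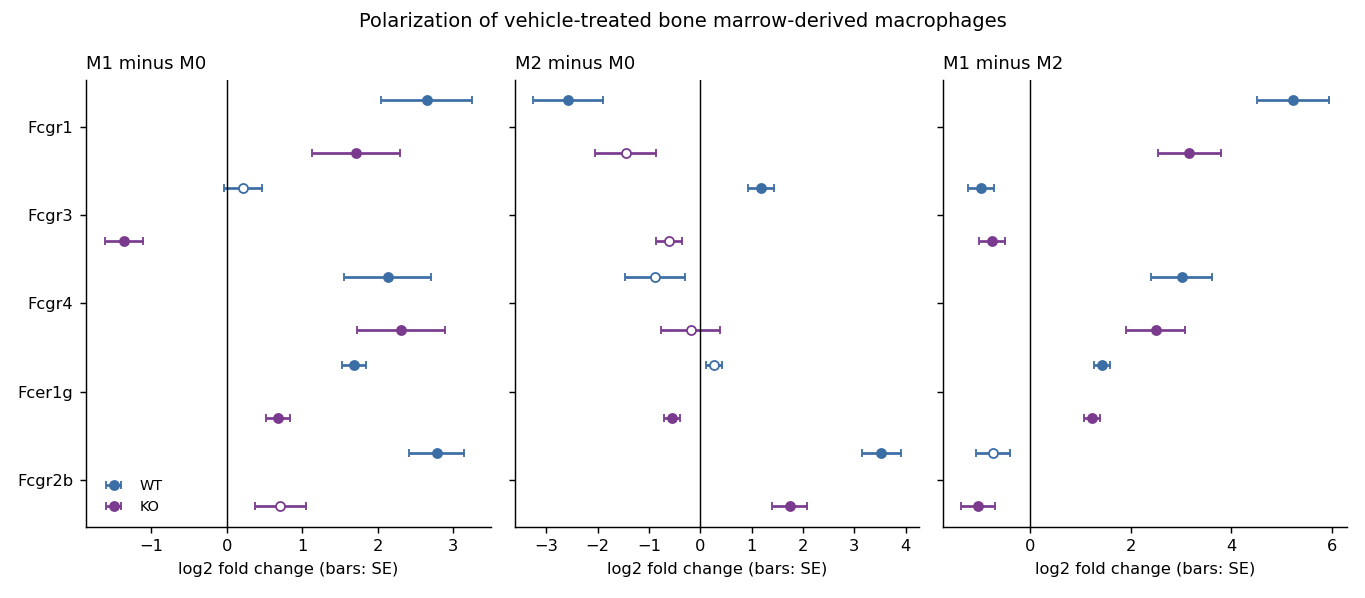
Log2 fold change with its SE (horizontal axis) of the 5 genes between polarization states of vehicle libraries, in WT (blue) and KO (purple); filled points have an adjusted p under 0.05. Fcgr1 and Fcgr4 are higher in M1 than in M0 in both genotypes. The values of Fcgr3 against M0 lie on opposite sides of 0 in WT and KO, with M1 in WT and M2 in KO not called.

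Whether polarization moved the receptors differently in the 2 genotypes was tested as an interaction. The M1 minus M0 difference was lower in KO than in WT for Fcgr3 (-1.58 ± 0.36, adjusted p = 0.002), Fcer1g (-1.01 ± 0.22, adjusted p = 0.00144) and Fcgr2b (-2.08 ± 0.49, adjusted p = 0.00324), where 20.7% of all genes were called. The M2 minus M0 difference was lower in KO for the same 3 genes, by -1.79 ± 0.36, -0.82 ± 0.22 and -1.79 ± 0.49 (adjusted p = 0.000524, 0.00704 and 0.00808), where 27.1% were called. For Fcgr3 the 2 genotypes lay on opposite sides of 0. Its M1 value was -1.36 in KO and not called in WT, and its M2 value was 1.19 in WT and -0.60, not called, in KO. The M2 value of Fcer1g was -0.55 in KO and not called in WT. Both interactions use the same WT_M0 and KO_M0 libraries. Fcgr1 and Fcgr4 were called in neither, with values of -0.93 ± 0.81 and 0.18 ± 0.79 for M1 and 1.13 ± 0.89 and 0.70 ± 0.82 for M2. Those 2 values for M2 became -0.28 and -0.13 without KO_M2 vehicle replicate 3.

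Compared directly, KO and WT differed in Fcgr3 and Fcgr2b before polarization. Both were higher in KO_M0 than in WT_M0, by 1.42 ± 0.26 (adjusted p = 0.000109) and 1.43 ± 0.36 (adjusted p = 0.00309), where 33.2% of all genes were called. Fcgr1 in KO_M0 also lay above WT_M0 without overlap, at 1.06 ± 0.59, and was not called (adjusted p = 0.167). Markers of other cells were also higher in KO_M0 than in WT_M0. Neutrophil genes summed to 601 to 755 against 283 to 513 CPM, B cell genes to 25.7 to 32.0 against 6.93 to 12.5 CPM, T and NK cell genes to 5.76 to 7.08 against 0.449 to 1.67 CPM, and mast cell, eosinophil and basophil genes to 4.06 to 4.93 against 0 to 1.02 CPM. Their part in these values was not tested.

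After polarization, Fcer1g was the member called between genotypes. It was lower in KO_M1 than in WT_M1 by a log2 value of -0.86 ± 0.16 (adjusted p = 0.000613), with 11.6% of all genes called, and lower in KO_M2 than in WT_M2 by -0.67 ± 0.16 (adjusted p = 0.0136), with 3.56% called. The M2 call was lost without KO_M2 vehicle replicate 2 (-0.62), without replicate 3 (-0.64), without both libraries high in neutrophil genes (-0.61), and when only these 2 groups were fitted (-0.67). Summed macrophage genes moved with these comparisons. They were at 15718 to 25421 CPM in KO_M1 against 43660 to 46553 CPM in WT_M1, and at 5867 to 18467 CPM in KO_M2 against 24993 to 30972 CPM in WT_M2, and their part in the Fcer1g values was not tested. Fcgr1 in KO_M2 against WT_M2 missed the threshold (2.19 ± 0.68, adjusted p = 0.0705) and was called in 6 of 14 alternatives, with 3.33 without WT_M2 vehicle replicate 1 and 0.78 without KO_M2 vehicle replicate 3. Fcgr2b in KO_M1 against WT_M1 was not called (-0.65 ± 0.34, adjusted p = 0.212), but was called at -1.24 without KO_M1 vehicle replicate 2.

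Ordered by vehicle mean, Fcgr1 ran from KO_M1 (409 ± 164 CPM, SD) and WT_M1 (373 ± 31.9) through KO_M0 (124 ± 9.11), WT_M0 (59.3 ± 22.0) and KO_M2 (45.5 ± 50.2) to WT_M2 (9.77 ± 9.15). Its neighbours overlapped at the top, between the 2 M1 groups, and among the lowest 3. Fcgr4 had the same 2 groups on top, KO_M1 (289 ± 95.6 CPM) and WT_M1 (259 ± 53.5), and the 4 others followed between 31.7 and 58.9 CPM with each overlapping the next. Fcgr3 ran from KO_M0 (945 ± 81.2 CPM), WT_M2 (804 ± 54.7) and KO_M2 (623 ± 74.8), each apart from the next, to WT_M1, KO_M1 and WT_M0 between 352 and 408 CPM, which overlapped in that order. For Fcgr2b the order was WT_M2, KO_M2, WT_M1, KO_M1, KO_M0 and WT_M0, from 343 ± 53.4 to 29.8 ± 12.0 CPM, and only the last step was free of overlap. Fcer1g ran from WT_M1 (5015 ± 222 CPM) through KO_M1, WT_M2, KO_M0 and WT_M0 to KO_M2 (1174 ± 128), with overlap only between WT_M2 and KO_M0.

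The sum of activating receptor counts (Fcgr1, Fcgr3 and Fcgr4) was divided by the Fcgr2b count within each library. The ratio is a description, with no test, and depends on how well each 3′ end is captured, so only its change between groups is read. In vehicle libraries it was 11.9, 13.9 and 28.9 (lowest, median and highest) in WT_M0 and 11.9, 14.1 and 17.1 in KO_M0. It was 4.32, 5.21 and 5.72 in WT_M1, and 2.12, 2.31 and 3.1 in WT_M2. In WT the 3 states do not overlap, and the ratio is highest in M0 and lowest in M2. In KO_M2 it was 2.26, 2.95 and 2.99, while KO_M1 spread from 4.33 to 16.3 and overlapped KO_M0.

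The mean log2 ratio was lower than in M0 by -1.74 in WT_M1, -2.76 in WT_M2 and -2.39 in KO_M2. In WT_M1 the lower ratio thus came with higher levels of Fcgr1 and Fcgr4, since Fcgr2b was higher as well and Fcgr3, the largest part of the sum in M0, was not called. With Fcgr1 alone over Fcgr2b, the WT_M1 value against WT_M0 was -0.16, and with Fcgr4 alone -0.72. In KO_M1 against KO_M0 the sign depended on the receptor, at -0.68 for the sum, -1.95 for Fcgr3 alone, 1.07 for Fcgr1 alone and 1.70 for Fcgr4 alone.

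**Figure D3:**
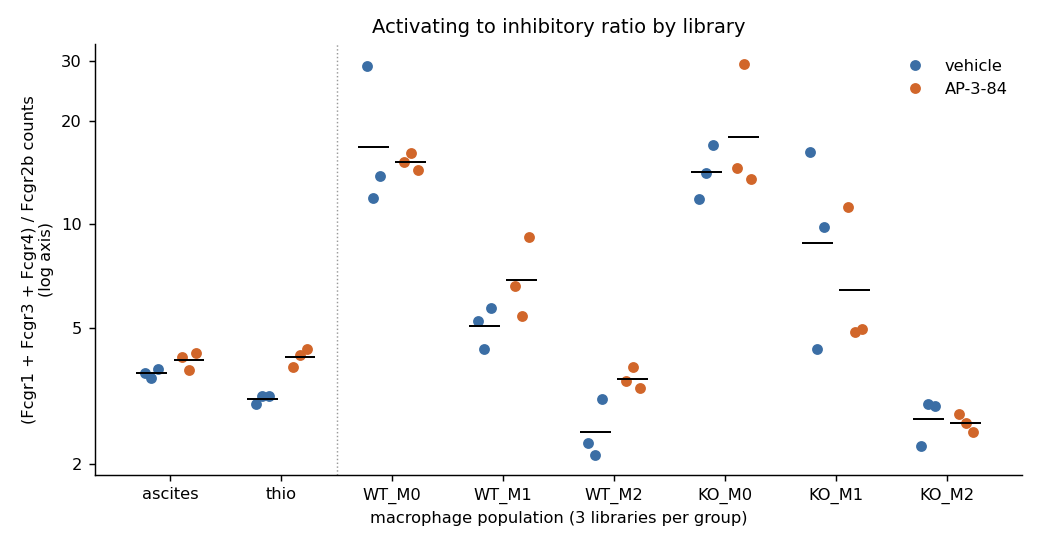
Counts of Fcgr1, Fcgr3 and Fcgr4 over counts of Fcgr2b (log axis) in each library, by population, with vehicle in blue and AP-3-84 in orange; short lines are geometric means of 3 libraries. M0 libraries lie at 11.9 or above and M2 libraries between 2.12 and 3.83.

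In the peritoneum, all 5 members differed between ascites and thio vehicle macrophages, where 33.7% of 16955 genes were called. The activating receptors split. Fcgr1 was at 335, 348 and 346 CPM in ascites and 35.8, 33.9 and 31.7 CPM in thio, a log2 difference of 3.34 ± 0.08 (adjusted p = 7.55e-15). Fcgr4 was at 75.8, 73.7 and 84.4 CPM against 19.2, 17.1 and 14.5 CPM, a difference of 2.20 ± 0.12 (adjusted p = 1.59e-10). Fcgr3 went the other way, at 376, 401 and 407 CPM against 518, 482 and 506 CPM, or -0.35 ± 0.06 (adjusted p = 0.000101).

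Fcer1g was at 997, 1016 and 1161 CPM in ascites and 649, 683 and 619 CPM in thio (0.70 ± 0.08, adjusted p = 4.24e-06). Fcgr2b differed less, at 213, 231 and 221 CPM against 191, 169 and 174 CPM (0.32 ± 0.07, adjusted p = 0.00123). No member overlapped between the populations. The share of all genes without overlap was not counted, here or in the comparisons below, so this carries little on its own. The calls of Fcgr3 and Fcgr2b were lost when all 48 libraries shared 1 fit, at -0.38 and 0.28. The activating to inhibitory ratio was 3.56 to 3.78 in ascites and 3.00 to 3.17 in thio. Ascites libraries also held 211 to 272 CPM of 8 epithelial, mesothelial or ID8 genes, against 2.81 to 4.98 CPM in thio, and the 2 populations came from mice with different genotype labels. Population, tumour and mouse line cannot be told apart here. Neutrophil genes summed to 62.5 to 94.8 CPM in ascites and 107 to 112 CPM in thio.

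AP-3-84 was compared with vehicle for 5 members in 8 populations, and 6 of these 40 comparisons were called. In WT_M0, WT_M1, WT_M2, KO_M1 and KO_M2, edgeR called 0 of 25, and DESeq2 called 0 too. In the same order, 0.144%, 0.017%, 1.21%, 0% and 0.0509% of all genes were called there. At an unadjusted p under 0.05 there were 2, Fcgr3 in WT_M0 and Fcgr1 in KO_M2. Without the filter on low counts, Fcgr1 and Fcgr4 were called lower in WT_M0 and in KO_M2, where 311 and 577 of 22768 genes were called. The intervals are wide, since the SE of Fcgr1 and Fcgr4 in bone marrow-derived cells was 0.55 to 0.78, so these data do not show that the receptors were unaffected.

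Fcgr3 in WT_M0 was at 598, 549 and 411 CPM after AP-3-84, all above the vehicle libraries at 320, 373 and 364 CPM (0.56 ± 0.25, adjusted p = 0.487). Fcgr1 in KO_M2 was at 25.2, 5.98 and 3.57 CPM after AP-3-84 and 8.76, 25.0 and 103 CPM with vehicle (-2.01 ± 0.67, adjusted p = 0.221). The second value rested on vehicle replicate 3, the library high in neutrophil genes, without which it was -0.60. It was called at -2.49 without vehicle replicate 1, and was -3.24 and not called without AP-3-84 replicate 1. In Fcgr4 the same comparison was -0.76 ± 0.59 with that library and 0.07 without it. Fcgr1 in WT_M0 was at 31.0, 34.3 and 35.6 CPM after AP-3-84, all below the vehicle libraries at 82.6, 56.6 and 38.8 CPM. Its difference was -0.82 and was not called (adjusted p = 0.691).

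**Figure D4:**
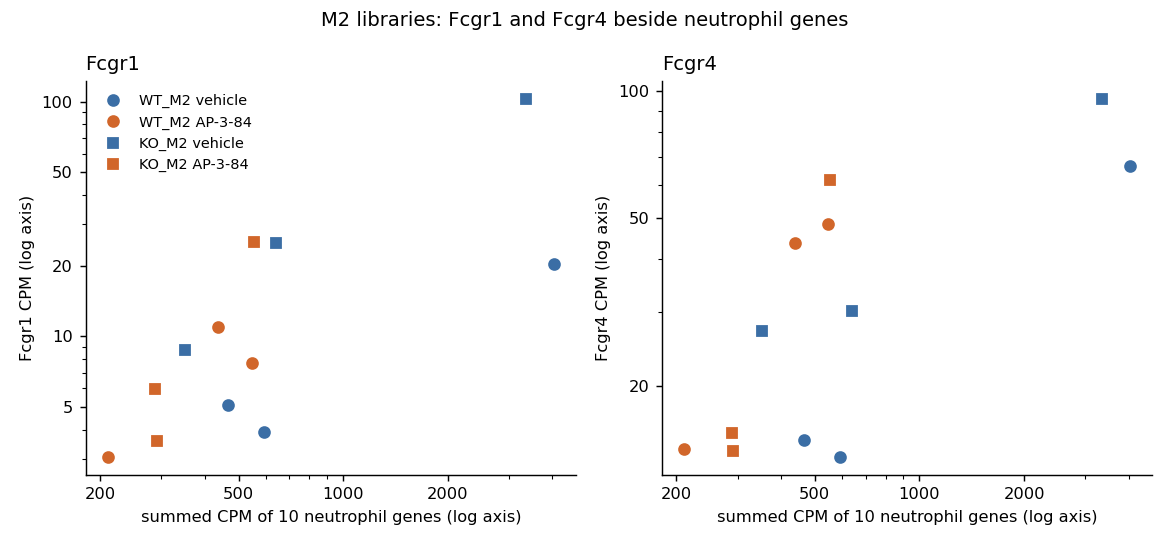
Fcgr1 (left) and Fcgr4 (right) in CPM against the summed CPM of 10 neutrophil genes in the 12 M2 libraries, both on log axes; circles are WT_M2, squares KO_M2, blue vehicle and orange AP-3-84. The 2 vehicle libraries at 4039 and 3360 CPM of neutrophil genes have the highest Fcgr1 and Fcgr4 of their groups.

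Peritoneal macrophages gave 3 of the 6 calls, all lower after AP-3-84. In thio cells 2 of 5 members were called, with 4.32% of all genes called and 1.82% called lower. Fcgr1 was at 20.2, 22.1 and 18.6 CPM after AP-3-84 and 35.8, 33.9 and 31.7 CPM with vehicle (-0.73 ± 0.08, adjusted p = 5.32e-05). Fcgr2b was at 129, 126 and 124 CPM against 191, 169 and 174 CPM (-0.49 ± 0.07, adjusted p = 0.000291). By these calls, the high-affinity activating receptor and the inhibitory receptor were both lower in thio cells after AP-3-84. The groups of Fcgr1 and of Fcgr2b did not overlap, with the share of all genes without overlap not counted. Fcgr3 was not called, at -0.05 ± 0.06 (adjusted p = 0.759). Both calls held in every alternative but the fit of all 48 libraries together, which gave the same differences (-0.74 and -0.50) and no call. The ratio of activating to inhibitory counts was 3.00 to 3.17 with vehicle and 3.84 to 4.34 after AP-3-84. Summed macrophage genes were at 27642 to 32807 CPM after AP-3-84 and 34315 to 34774 CPM with vehicle, and their part in these values was not tested.

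In ascites cells 1 member was called, with 1.79% of all genes called and 0.1% called lower. Fcgr1 was at 248, 301 and 281 CPM after AP-3-84 and 335, 348 and 346 CPM with vehicle (-0.31 ± 0.08, adjusted p = 0.0468). The call was lost in 9 of 13 alternatives, among them leaving out any vehicle replicate (-0.33, -0.30 and -0.30), AP-3-84 replicate 1 (-0.26) or AP-3-84 replicate 3 (-0.32), and the fit with the replicate number as a block (-0.31). Fcgr2b was at 184, 207 and 181 CPM against 213, 231 and 221 CPM, apart but not called (-0.22 ± 0.07, adjusted p = 0.15). The responses of the 2 peritoneal populations were not called different for any member. DESeq2 called 0 as well, and 2 members had an unadjusted p under 0.05. For Fcgr1 the difference was 0.42 ± 0.11 (adjusted p = 0.312), and for Fcgr2b 0.27 ± 0.10 (adjusted p = 0.483), with 0.118% of all genes called. Summed macrophage genes in ascites were at 23669 to 28342 CPM after AP-3-84 and 28485 to 30343 CPM with vehicle, without overlap, and their part in the ascites values was not tested.

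The other 3 calls came from KO_M0, the population where most genes moved, with 20.7% of all genes called. Fcgr4 was at 293, 406 and 147 CPM after AP-3-84 and 48, 62.2 and 64.4 CPM with vehicle (2.28 ± 0.58, adjusted p = 0.00689). Fcer1g was at 3569, 2851 and 1876 CPM against 1645, 1674 and 1847 CPM (0.68 ± 0.16, adjusted p = 0.00228). Fcgr3 went down, from 882, 1037 and 917 CPM to 332, 179 and 708 CPM (-1.22 ± 0.25, adjusted p = 0.00101). None of the 3 overlapped, with the share of all genes without overlap not counted, and AP-3-84 replicate 3 lay nearest to the vehicle libraries in each. Fcgr1, at 226, 257 and 135 CPM against 126, 132 and 114 CPM, was apart and not called (0.73 ± 0.57, adjusted p = 0.392). Fcgr2b, at 58.1, 28.6 and 72.8 CPM against 89.1, 87.4 and 64.1 CPM, overlapped (-0.59 ± 0.35, adjusted p = 0.232).

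Single libraries weighed on these values. Without AP-3-84 replicate 3 the differences were -1.89 for Fcgr3, 2.59 for Fcgr4 and 0.90 for Fcer1g. The call of Fcgr4 was lost without replicate 2 (1.92) and that of Fcer1g without replicate 1 (0.46), and in a fit of these 2 groups alone those of Fcgr3 (-1.21) and Fcer1g (0.68) were lost. Genes induced by LPS and IFN-γ moved in the same libraries. Their sum over 10 genes was 690, 388 and 211 CPM after AP-3-84 and 132, 141 and 137 CPM with vehicle. The same sum was 268 to 498 CPM in WT_M0 vehicle and 1304 to 2634 CPM in KO_M1 vehicle. Saa3, an acute-phase gene chosen after its values were seen, was at 1715, 1557 and 387 CPM against 55.0, 102 and 18.4 CPM, and at 26361 to 44342 CPM in KO_M1 vehicle. Neutrophil genes summed to 309 to 507 CPM after AP-3-84 against 601 to 755 CPM with vehicle, and T and NK cell genes to 0.247 to 3.79 against 5.76 to 7.08 CPM, and their part in these values was not tested. Cdkn1a was at 34.1, 36.6 and 45.7 CPM with vehicle and 65.9, 100 and 102 CPM after AP-3-84, below all WT libraries. Whether these libraries differ from vehicle through the compound or through another difference between cultures was not tested.

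The response in KO_M0 differed from that in WT_M0 for Fcgr3 (-1.78 ± 0.36, adjusted p = 0.00126) and Fcgr4 (3.02 ± 0.82, adjusted p = 0.013), with 17% of all genes called in this interaction. In WT_M0, Fcgr4 was at 27.0, 30.7 and 48 CPM after AP-3-84, all below the vehicle libraries at 77.8, 48.5 and 50.4 CPM (-0.74 ± 0.58, adjusted p = 0.713). The interaction of Fcgr4 lost its call without KO_M0 AP-3-84 replicate 2 (2.66), and that of Fcgr3 in a fit of these groups alone (-1.75). Without KO_M0 AP-3-84 replicate 3 the interaction was -2.44 for Fcgr3 and 3.33 for Fcgr4, and that of Fcer1g was called as well (0.72). In M1 and in M2, edgeR called 0 members different in response between KO and WT, with 0.00849% and 1.77% of all genes called, 0 members at an unadjusted p under 0.05, and 0 called by DESeq2. Over both genotypes, edgeR called 0 members between the responses of M1 and M0 and 0 between M2 and M0, with 0.492% and 1.87% of all genes called. Fcer1g had unadjusted p-values of 0.00164 and 0.00159 there (-0.54 ± 0.16 in both) and was the 1 member DESeq2 called in each.

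**Figure D5:**
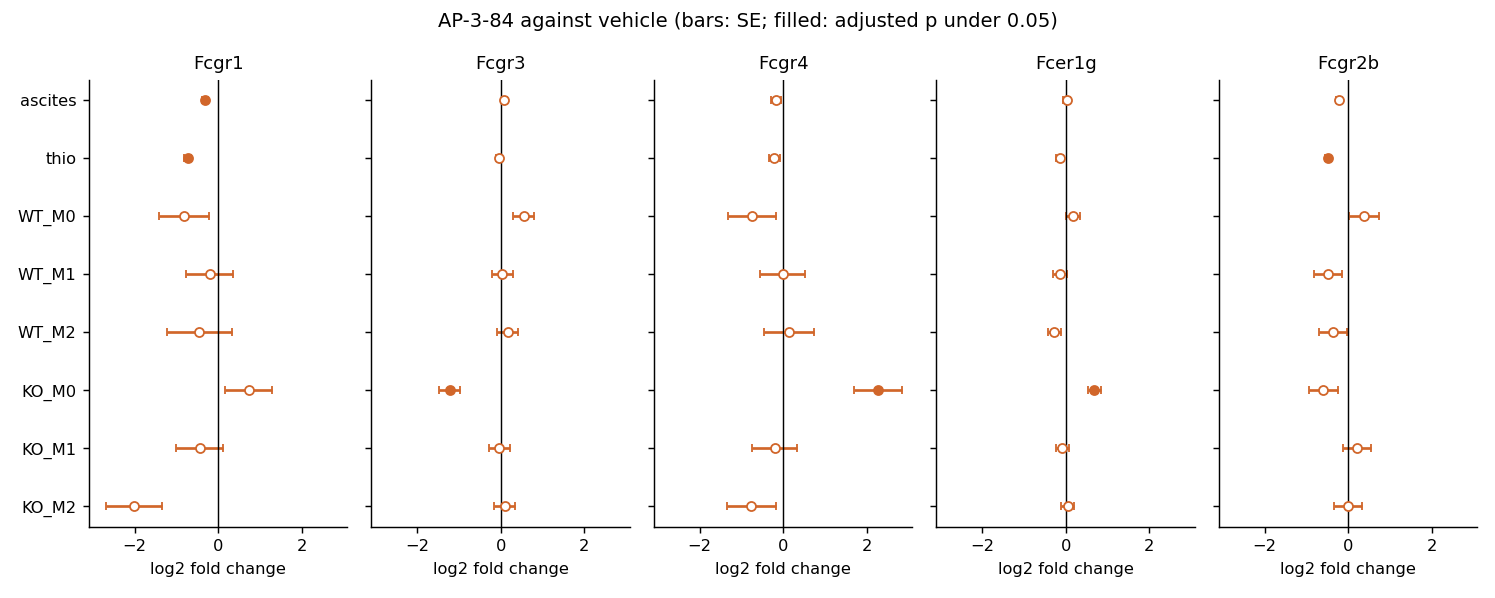
Log2 fold change with its SE (horizontal axis) of each gene after AP-3-84 against vehicle in the 8 populations (rows); filled points have an adjusted p under 0.05. The 6 calls are Fcgr1 in ascites and thio, Fcgr2b in thio, and Fcgr3, Fcgr4 and Fcer1g in KO_M0.

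Genes of the wider pathway were described from fixed lists, by counts called beside the median of all genes (between -0.03 and 0.05 in the comparisons below). Of 18 kinases, adaptors and effectors of activating signalling, 17 were measured in bone marrow-derived cells. In WT_M1 against WT_M0, where 15.5% of all genes were called, 3 were higher and 1 lower (list median 0.24), and the largest change was that of Rac2, a GTPase of phagocytosis, from 685 to 1840 CPM (1.43 ± 0.25). In WT_M2 against WT_M0, where 23.4% of all genes were called, 3 were higher and 6 lower (median -0.55). Prkcd, a kinase activated by diacylglycerol, was higher (172 to 689 CPM, 2.00 ± 0.29), while the kinase Lyn was lower (314 to 123 CPM, -1.36 ± 0.19). Fcgr3 and Fcgr2b were thus higher in WT_M2 than in M0 beside lower Lyn.

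Among 12 genes that restrain these receptors, all measured, 2 were higher and 6 lower in WT_M2 against WT_M0 (median -0.37, with 23.4% of all genes called). Cblb, a ubiquitin ligase, was higher (16.5 to 105 CPM, 2.67 ± 0.21), and Ptpn6, which encodes the phosphatase SHP-1, was lower (530 to 231 CPM, -1.20 ± 0.20). In WT_M1 only Dok1 was called (0.51 ± 0.15). In ascites against thio, 8 of the 12 were higher and 2 lower (median 0.51, with 33.7% of all genes called), among them Ptpn6 (170 to 307 CPM, 0.86 ± 0.08) and Cblb (55.0 to 12.7 CPM, -2.12 ± 0.10).

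In KO_M0 after AP-3-84, where 20.7% of all genes were called, 10 of 17 activating signalling genes were higher and 1 lower (median 0.62). Rac2 went from 247 to 1606 CPM (2.70 ± 0.26) and Lyn from 208 to 538 CPM (1.37 ± 0.19). Of the 12 restraining genes, 5 were higher and 0 lower (median 0.22), led by Ptpn6 from 307 to 816 CPM (1.41 ± 0.20). In thio cells after AP-3-84, 2 of 18 activating genes were lower, among them the adaptor Blnk (-0.30 ± 0.06), and so were 2 of 12 restraining genes, Ptpn6 (-0.33 ± 0.08) and Inpp5d (-0.32 ± 0.08), which encodes SHIP1, the phosphatase recruited by FcγRIIB. These lists had medians of -0.08 and -0.10, where 4.32% of all genes were called and 1.82% called lower.

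Regulators known to act on Fc receptor genes were read from a list of 14. In WT_M1 against WT_M0, with 15.5% of all genes called, 4 were higher and 0 lower, among them Il4ra, a chain of the IL-4 receptor (147 to 377 CPM, 1.36 ± 0.25). In ascites against thio, with 33.7% called, 10 were higher and 2 lower, with Irf1 at 191 against 59.4 CPM (1.68 ± 0.07). Fcgr1 and Fcgr4 were higher in both of these comparisons. In KO_M1 against KO_M0, where they were higher as well, 4 regulators were higher and 4 lower (44.5% of all genes called). In WT_M2 against WT_M0, C5ar1, the C5a receptor, was lower (248 to 48.6 CPM, -2.35 ± 0.42). In KO_M0 against WT_M0, with 33.2% called, 5 were higher and 1 lower, with Irf8 at 435 against 155 CPM (1.49 ± 0.15).

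Across the 36 bone marrow-derived libraries, the 2 genes most like each receptor were named by Pearson's r of log2 CPM among 8119 genes whose mean log2 CPM was at least 3. The libraries share their groups, so r describes the groups as much as the genes. Fcgr1 was closest to Rtp4 (0.95) and Ms4a6b (0.95), and Fcgr4 to Irf7 (0.94) and Milr1 (0.94), of which Rtp4 and Irf7 are known interferon-induced genes. Fcgr3 was closest to Arl4c (0.93) and Npc1 (0.91), Fcer1g to Tmem63a (0.92) and Agpat3 (0.92), and Fcgr2b to Slc7a2 (0.95), an arginine transporter, and Jak2 (0.89). Among the members, r was 0.94 between Fcgr1 and Fcgr4, -0.64 between Fcgr1 and Fcgr3, and -0.34 between Fcgr1 and Fcgr2b. In the 12 peritoneal libraries, which fall into ascites and thio, r was -0.78 between Fcgr3 and Arl4c and 0.84 between Fcgr1 and Fcgr2b, opposite in sign to the values in bone marrow-derived cells.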

How the data were processed

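The deposited table holds raw counts per gene and library, per its name and whole-number values. The submitters' processing notes name RSEM, Bowtie2 and DESeq2, with no version or order. The genome build is not given in the sources used here, nor is the annotation. Per the labels' protocols, libraries were made from 100 ng of RNA and read as single reads of 75 bases. All 48 columns were matched to samples by title. Symbols were found for 51596 of 51789 gene IDs.

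Counts were tested with edgeR 4.0.16 in R 4.3.3 (quasi-likelihood test, filterByExpr, TMM scaling, 1 mean per group, no block), with peritoneal libraries (16955 genes) and bone marrow-derived libraries (11779 genes) fitted apart. Their biological coefficients of variation were 0.168 and 0.225. P-values were adjusted by Benjamini-Hochberg over all genes of a comparison and called at 0.05, two-sided. The 26 comparisons comprise 8 of AP-3-84 with vehicle, 10 between vehicle groups and 8 interactions. The script was run on counts simulated from its own fitted spread, which cannot show how it handles uneven libraries. No libraries were identical, and chi-square per gene between replicates was 2.57 to 42.6 over 48 pairs, where 1 is counting noise. Depth limits the precision of low values, and 3′ reads without molecular identifiers need not be independent.

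Replicate numbers are shared between groups. Same-numbered libraries deviated together in every pair only between WT_M2 and WT_M0 vehicle (r = 0.25, 0.21 and 0.33), where a replicate block changed no call of a member. Members and lists were chosen with earlier results of these data known. The genes named are the 5 members, from each list up to 4 called genes with the largest change, the 2 genes most like each member, and checks of genotype, polarization and F4/80. Saa3 was added after its values were seen. Pira6 and Lilrb4b, of the lists, were not found by symbol. Alternatives were median-ratio size factors, total counts, no filter, DESeq2 1.42.0, only the groups compared, all libraries in 1 fit, a replicate block, each replicate left out and, chosen after seeing the data, 2 vehicle libraries left out together. Promoter sequences are from RefSeq (GRCm38.p6), and coordinates from GENCODE M21 (GRCm38). Some genes of the lists are counted but not reported here by name.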

Additional observations from a re-analysis of the deposited data

Results flagged for a closer look

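Differences between groups in the same contrast were called for 8 results by an interaction term in edgeR's quasi-likelihood test. The response to AP-3-84 differed between KO_M0 and WT_M0 for Fcgr3 (-1.78 on the log2 scale) and Fcgr4 (3.02), where 17% of all genes were called. Fcgr3 was lower in 3 of 3 treated KO_M0 libraries than in any vehicle library and higher in 3 of 3 treated WT_M0 libraries, and Fcgr4 went the other way in both. The M1 minus M0 difference was lower in KO than in WT for Fcgr3 (-1.58), Fcer1g (-1.01) and Fcgr2b (-2.08), with 20.7% of all genes called. The M2 minus M0 difference was lower in KO for Fcgr3 (-1.79), Fcer1g (-0.82) and Fcgr2b (-1.79), with 27.1% of all genes called. For Fcgr3 the values in WT and KO had opposite signs in both, but its M1 value in WT and its M2 value in KO were not called. These last 6 values share the KO_M0 and WT_M0 vehicle libraries.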

How the results depend on the processing

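Of 45 member calls, 45 held with DESeq2, 45 with total counts only, 45 without the filter on low counts, 44 with median-ratio size factors, 40 with all 48 libraries in 1 fit and 38 with only the groups compared. None of the 45 changed direction in these fits or when a library was left out. With the replicate block, 44 held, and the lost one was Fcgr1 after AP-3-84 in ascites (-0.31). The replicate numbers pair WT_M2 with WT_M0 alone, and the block changed no other call of a member. Leaving out 1 library kept 298 of 318 calls. The set without the 2 M2 vehicle libraries high in neutrophil genes was chosen after seeing the data and kept 17 of 18. The fit without a filter gave much smaller p-values for some members, and the cause was not tested.

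Members called after AP-3-84 in ascites (1) fell to 0 with median-ratio size factors, with the replicate block, with only the groups compared and with all 48 libraries. Of all genes, these fits called 272 of 16955, 174 of 16955, 203 of 15870 and 112 of 13815. The main fit called 303 of 16955. Members called in ascites ranged from 0 to 1 with 1 library left out. In thio (2) the count was 0 with all 48 libraries, where 52 of 13815 genes were called, against 733 of 16955 in the main fit. Without the filter the count was 2 in WT_M0 (0), 5 in KO_M0 (3) and 2 in KO_M2 (0). There 311, 2479 and 577 of 22768 genes were called, against 17, 2440 and 6 of 11779 in the main fit. The count was 1 in KO_M0 with only the groups compared, where 704 of 10341 genes were called. It was 0 to 1 in KO_M2 with 1 library left out. Between ascites and thio (5) it was 3 with all 48 libraries, where 3252 of 13815 genes were called, against 5716 of 16955 in the main fit. For KO_M2 against KO_M0 (2) the count was 4 without the filter and 4 with all 48 libraries. There 4183 of 22768 and 5171 of 13815 genes were called, against 4481 of 11779 in the main fit. For KO_M1 against KO_M2 (5) the count was 3 with only the groups compared and 3 to 5 with 1 library left out. With only the groups compared, 1782 of 10497 genes were called, against 2993 of 11779 in the main fit. For KO_M1 against WT_M1 (1) the count was 2 without the filter and 1 to 2 with 1 library left out. Without the filter, 1768 of 22768 genes were called, against 1372 of 11779 in the main fit. For KO_M2 against WT_M2 (1) the count was 2 with total counts, 3 without the filter, 2 with DESeq2 and 2 with all 48 libraries. Of all genes, these fits called 640 of 11779, 959 of 22768, 683 of 10820 and 794 of 13815. The main fit called 419 of 11779. The count was 0 with only the groups compared (7 of 10207 genes called) and 0 without the 2 libraries high in neutrophil genes (44 of 11779). It was 0 to 2 with 1 library left out.

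For differences in response, the count without the filter was 1 between ascites and thio (0), 4 between KO_M0 and WT_M0 (2), 1 between KO_M2 and WT_M2 (0), 1 between M1 and M0 (0) and 3 between M2 and M0 (0). In that order, this fit called 155 of 31120 genes, and 2107, 757, 528 and 765 of 22768. The main fit called 20 of 16955, and 2002, 208, 58 and 220 of 11779. For M1 and for M2 against M0, DESeq2 gave 1 and 1 members, and all 48 libraries 1 and 1. There DESeq2 called 158 and 413 of 11231 genes, and the fit of all 48 libraries 204 and 438 of 13815. With 1 library left out the count was 1 to 3 between KO_M0 and WT_M0, 0 to 2 between M1 and M0 and 0 to 2 between M2 and M0.

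The log2 ratio over Fcgr2b depended on the activating receptor. Between ascites and thio (0.24) it was 3.03 with Fcgr1 alone, -0.67 with Fcgr3 and 1.89 with Fcgr4. In WT_M1 against WT_M0 (-1.74) it was -0.16, -2.67 and -0.72, and in WT_M2 against WT_M0 (-2.76) it was -6.55 with Fcgr1 and -4.88 with Fcgr4. In WT_M1 against WT_M2 (1.03) it was 6.39, -0.25 and 4.16. In KO_M1 against KO_M0 (-0.68) it was 1.07, -1.95 and 1.70, in KO_M2 against KO_M0 (-2.39) it was -3.88 with Fcgr1, and in KO_M1 against KO_M2 (1.71) it was 4.95, 0.40 and 3.87. In KO_M0 after AP-3-84 (0.35) it was 1.36, -0.76 and 2.85, and between -0.0078 and 0.55 for the sum with 1 library left out.

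Uncalled values of single genes changed sign in the M2 comparisons when a KO_M2 vehicle library was left out. With 1 library left out, Fcgr4 after AP-3-84 in KO_M2 ranged from -1.78 to 0.0698, Fcgr4 in KO_M2 against WT_M2 from -0.16 to 1.84, Fcgr4 in KO_M2 against KO_M0 from -1.02 to 0.11 (above 0 without replicate 1 or 2 of KO_M2 vehicle), and the M2 minus M0 interaction of genotype from -0.28 to 2.27 for Fcgr1 and from -0.13 to 1.86 for Fcgr4. Without both libraries high in neutrophil genes, Fcgr4 in KO_M2 was 0.0685 and the Fcgr1 response of M2 minus M0 was 0.0925. The spread between libraries limits these values, with Fcgr1 at 8.76, 25.0 and 103 CPM in KO_M2 vehicle.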

Other observations

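Other receptors of immunoglobulin were read from a list of 9 genes, of which 5 were measured in bone marrow-derived cells. Fcgrt, the neonatal Fc receptor that recycles IgG, was higher in KO_M0 than in WT_M0 vehicle cells (296 against 47.0 CPM, 2.66 ± 0.34), and so was Fcrls, an Fc receptor-like scavenger receptor (493 against 175 CPM, 1.49 ± 0.40). Both were lower in KO_M1 than in KO_M0, by log2 values of -3.54 ± 0.36 and -3.43 ± 0.44, and lower in KO_M2, by -2.56 ± 0.34 and -2.82 ± 0.42. After AP-3-84 in KO_M0, Fcgrt was lower (120 CPM, -1.31 ± 0.33) and Fcrls higher (1124 CPM, 1.19 ± 0.40). These comparisons share the KO_M0 vehicle libraries.

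Of 12 other ITIM receptors, 11 were measured. In KO_M0 against WT_M0, 2 were higher and 6 lower, where 33.2% of all genes were called. Siglece, a sialic acid receptor, was at 1.46 against 45.7 CPM (-4.91 ± 0.56) and Pilra at 14.1 against 170 CPM (-3.58 ± 0.56), while Cd300a was higher (175 against 45.6 CPM, 1.94 ± 0.36). After AP-3-84 in KO_M0, 4 of the 11 were higher and 1 lower, where 20.7% of all genes were called. Siglece was at 91.9 CPM (5.92 ± 0.55) and Pilra at 80.6 CPM (2.51 ± 0.55), and the lower one was Cd300a (175 to 68.1 CPM, -1.36 ± 0.35). In thio cells after AP-3-84, where Fcgr2b was lower, 3 of the 11 were lower and 0 higher, with 4.32% of all genes called and 1.82% called lower. They were Clec12a (103 to 68.4 CPM, -0.59 ± 0.07), Lair1 (89.4 to 63.8 CPM, -0.49 ± 0.07) and Sirpa (812 to 592 CPM, -0.46 ± 0.08).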
